A study of Schizosaccharomyces pombe with 2 samples.

Results

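The genes described here encode the proteins of the large (60S) subunit of the cytoplasmic ribosome of fission yeast, Schizosaccharomyces pombe. Members were the probes whose name in the files, or its current RefSeq symbol, begins with rpl and a digit, together with rpp0, rpp101 to rpp103 and rpp201 to rpp203. The RNase P genes rpp1, rpp21 and rpp40 were left out. The rule gave 83 of the 5006 gene probe names, spotted 2 times each (166 of 10016 gene spots per array), and all 83 passed the filter on dim probes. Of the 83 names, 12 matched a RefSeq symbol, 58 a synonym and 6 a symbol by elimination among copies of one gene. The other 7 (rpl13a-1, rpl13a-2, rpl20-1-x2, rpl24-3, rpl27a, rpl7-3 and rpl7a) kept the name in the files. They are members by that name only, and what they encode was not checked.

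RNA of 2 cultures was hybridised together on each of 2 spotted cDNA arrays, in 2 colours. The first culture was a wild-type strain with the plasmid pDUAL-Ssn6, which expresses Ssn6, a subunit of a transcriptional corepressor. The sample titles call this Ssn6 overexpression. The second culture was a wild-type strain with the empty plasmid pDUAL-EMPTY. Both grew in logarithmic phase at 30 °C in MM-URA, a medium that lacks uracil and selects for the plasmid. The promoter that drives Ssn6 is not given in the sources used here, and neither is the number of transformants. The labels put the Ssn6 culture in Cy3 on array 1 and in Cy5 on array 2, with the empty-plasmid culture in the other dye. The design text speaks of 2 RNA preparations without saying which array each went to, so p-values rest on how far 2 arrays differ, which can be technical.

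The files name the colours only channel A and channel B, and every ratio here is channel B over channel A. On each array the probe for ssn6 itself was brighter in channel B, with log2 ratios of 1.91 and 2.18 (mean 2.04 ± 0.19, SD, n = 2 arrays; limma adjusted p = 5.94e-05). Channel B is therefore the likely Ssn6 culture on both arrays, but the files do not settle it, and the words higher and lower refer to channel B against channel A. Ratios of the arrays correlated at r = 0.687 over the 83 members and r = 0.805 over all 4900 genes tested, a description across genes that share the same arrays. Gene spots with signal numbered 9803 on array 1 and 9995 on array 2. Intensities are given in units of 1000 scanner units. The median over gene spots was 82.9 in channel B and 77.0 in channel A on array 1, and 90.3 in channel B and 76.9 in channel A on array 2.

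The large subunit holds the peptidyl transferase centre, where amino acids are joined, and the tunnel through which the new chain leaves. A flexible stalk on its side, built from the protein P0 and the acidic proteins P1 and P2, recruits and stimulates the elongation factors. In fission yeast many of these proteins are encoded by more than one gene copy, and growth conditions shift the transcription of ribosomal protein genes as a group, under control of the TOR pathway. Transcripts of copies can be so alike that a cDNA probe may bind several of them; how much of each ratio below comes from a copy was not tested.

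Among large subunit genes, more were higher than lower in channel B. After loess normalization, which fits ratio against brightness and subtracts the curve, 29 of 83 members were higher, 2 were lower and 52 did not pass an adjusted p of 0.05. Over all genes tested, 11.3% were called higher and 16.7% lower. The members' median log2 ratio was 0.40 (0.50 on array 1 and 0.39 on array 2), and that of all genes tested was 0.01. The ratio was positive on both arrays for 65 members, negative on both for 7 and of opposite sign for 11, whereas 38.5% of all genes were positive on both arrays, 37.3% negative on both and 24.2% of opposite sign. A ratio of at least 1.5-fold on both arrays was found upward for 16 members and downward for 1, against 6.2% and 11.5% of all genes. The spread between arrays was alike, with a median SD of 0.16 over members and 0.17 over all genes.

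**Figure D1:**
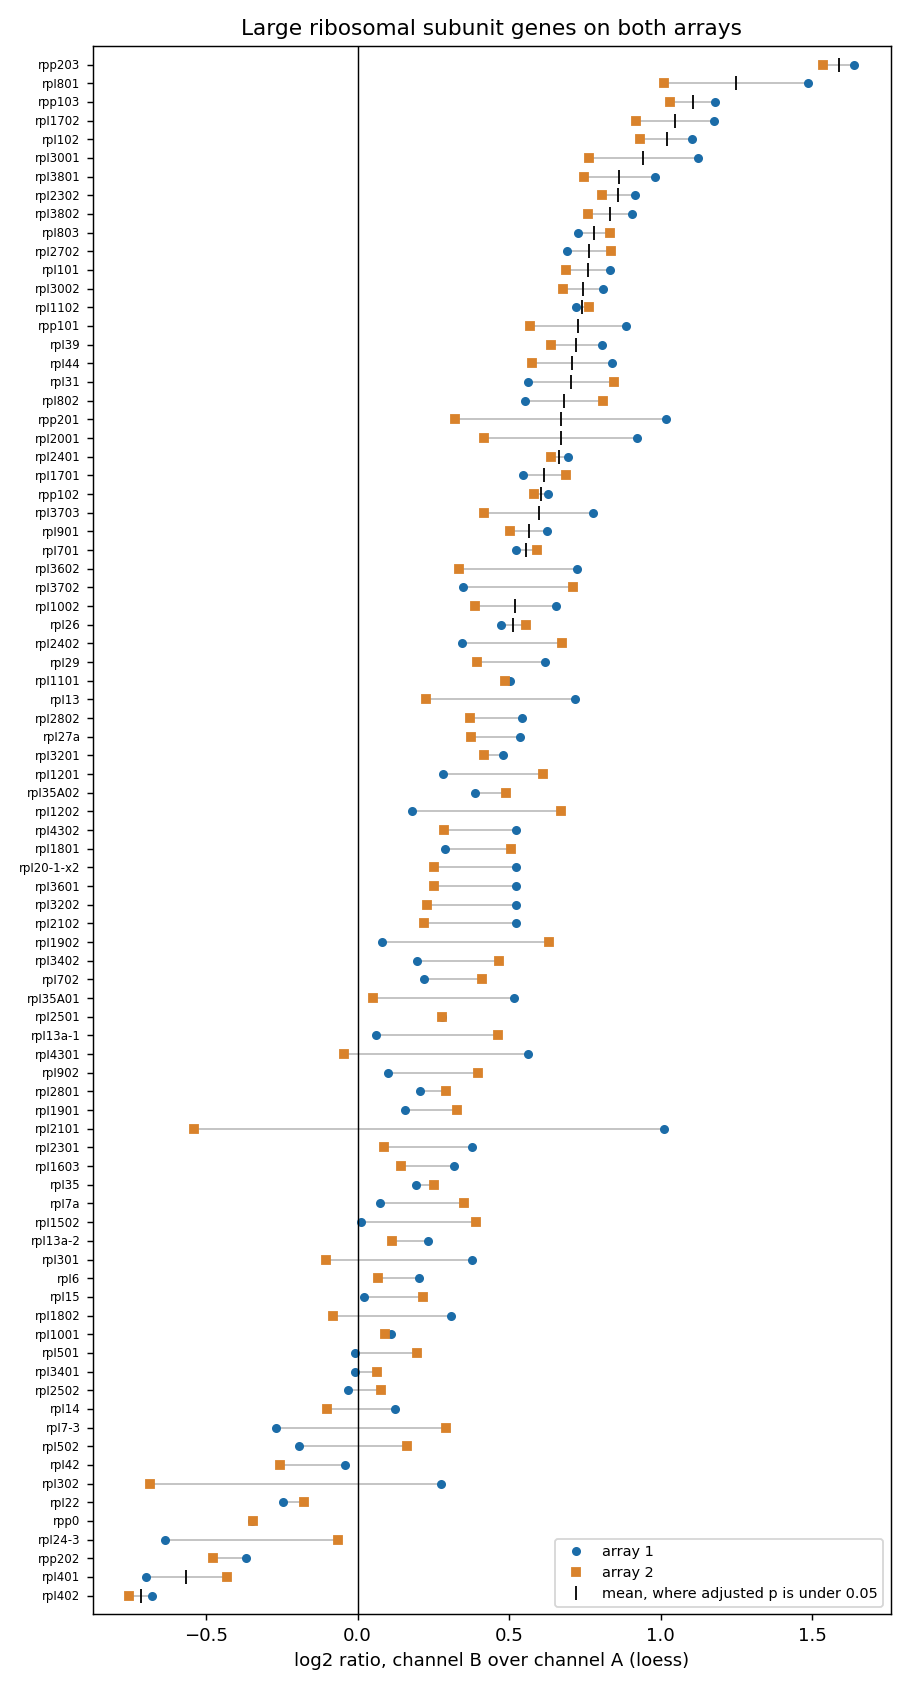
Loess log2 ratio, B over A (horizontal axis), for each of the 83 probes, ordered by mean; circles are array 1, squares array 2, and a bar marks the mean where the limma adjusted p is under 0.05. The bars stand at 29 probes on the right and at rpl401 and rpl402 on the left, which both turn positive with median centring; the points of rpl2101 lie far apart, on either side of 0.

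Before any normalization, 82 members were brighter in channel B than in channel A on array 1 and 81 on array 2, compared with 63.4% and 69.3% of all genes tested. Member intensities on array 1 had a median of 2119 in channel B (from 21.7 to 4136) and 680.0 in channel A (from 16.7 to 1657). On array 2 the medians were 1923 in channel B (from 29.3 to 3822) and 732 in channel A (from 39.1 to 1766). The members thus sat at the bright end of the arrays, where the loess curve itself lay above 0. That curve was fitted to all gene spots, those of the members included, so a shift shared by the members enters it in part. Of the 490 brightest genes tested, 68 were members and 50 were genes of the small subunit.

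The normalization decided how many members were called and the sign of the lowest ones, and it changed the order of the members. With each array centred on its median and no loess curve, 76 members were higher and 0 were lower, with a median log2 ratio of 1.21, while 15.5% of all genes were called higher and 17.2% lower. The 29 members higher with loess were all among the 76. Median-centred values exceeded the loess values by a median of 0.85 over the members (from -0.08 to 1.13) and by -0.03 over all genes. The 372 of these brightest genes that encode no ribosomal protein of the cytoplasm had a median-centred median of 0.13. With a separate loess curve for each of the 48 blocks, 31 members were higher and 1 was lower, against 12.0% and 16.4% of all genes, and 24 of the 29 remained higher. Whether the shift of bright spots is technical was not tested.

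**Figure D2:**
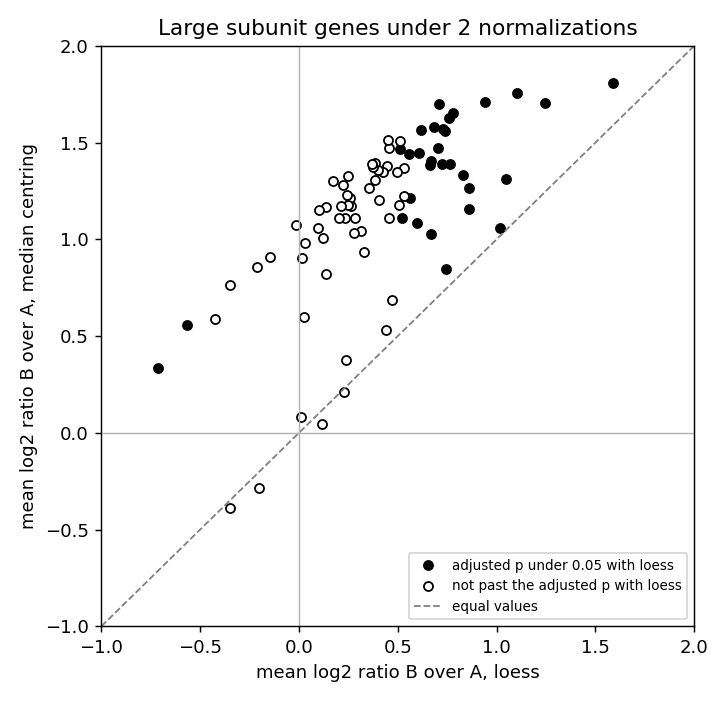
Mean log2 ratio of each member with loess (horizontal axis) and with median centring (vertical axis), n = 2 arrays; filled points passed the adjusted p with loess and the dashed line marks equal values. Most points lie about 0.85 above the line, and 2 members, rpl24-3 and rpl302, are negative with median centring.

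Among the stalk genes, the P1 genes and 2 of 3 P2 genes were higher, and the ratios of rpp0 and rpp202 were negative without passing the test. The largest loess ratio of any member belonged to rpp203 (rpp2-3 in the files), 1 of 3 copies for P2. Its intensity was 778 in channel B and 179 in channel A on array 1, and 617 in channel B and 161 in channel A on array 2. Channel B was thus the brighter by about the same factor on both arrays. The log2 ratios were 1.64 and 1.54, a mean of 1.59 ± 0.07 (SD, n = 2 arrays) or 3-fold, with a limma adjusted p of 0.000203. With a curve per block its ratio was 1.32, below the 1.39 of rpl801.

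The gene rpp103 encodes P1, the partner of P2 in the stalk dimers. It read 1536 in channel B against 361 in channel A on array 1, and 1825 in channel B against 498 in channel A on array 2. Its mean log2 ratio was 1.10 ± 0.10 (2.15-fold, adjusted p = 0.00139). The other P1 copies followed at smaller sizes. For rpp101 the ratio was 0.89 on array 1 and 0.57 on array 2 (mean 0.73 ± 0.22, adjusted p = 0.0136). For rpp102 it was 0.63 and 0.58 (mean 0.60 ± 0.03, adjusted p = 0.0236). All 3 P1 copies were therefore higher, and positive on each array.

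The arrays differed more for rpp201, a second P2 copy. Its log2 ratio was 1.02 on array 1 and 0.32 on array 2, a mean of 0.67 ± 0.49 (adjusted p = 0.0370). Channel B read 1727 and 1862 on the 2 arrays and channel A 427 and 773, so most of the gap lay in channel A. The remaining P2 copy, rpp202, read 2770 in channel B and 1306 in channel A on array 1, and 1817 in channel B and 1232 in channel A on array 2. Its loess ratio was -0.42 ± 0.08 (adjusted p = 0.0826), and its median-centred ratio was 0.59. With a curve per block it was -0.67 and passed as the 1 member lower (adjusted p = 0.0141). The probe rpp0, for P0, the anchor of the stalk, read 2901 in channel B and 1330 in channel A on array 1, and 3189 in channel B and 1763 in channel A on array 2. Its loess values were -0.35 and -0.34 (mean -0.35 ± 0.003, adjusted p = 0.141), and its median-centred ratio was 0.76. With a curve per block it was -0.18 (adjusted p = 0.390). Both genes were thus brighter in channel B as scanned, and their ratios were below 0 after a curve for bright spots was subtracted.

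**Figure D3:**
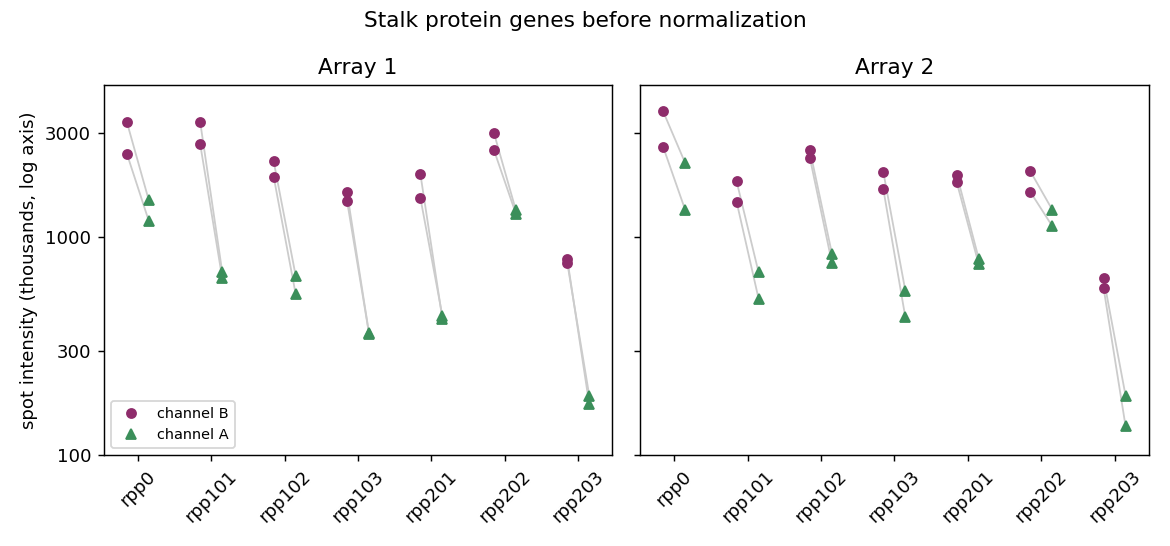
Intensity of each stalk gene's 2 spots per array (units of 1000, log axis) before normalization, with channel B (circles) left of channel A (triangles) and lines joining the channels of a spot. Channel B is above channel A in every spot, with gene means of 778 against 179 for rpp203 on array 1, and by the narrowest margin at rpp0 and rpp202.

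Outside the stalk, rpl801 had the highest loess ratio. It encodes a copy of L8, a protein near the peptidyl transferase centre. It averaged 1734 in channel B and 405 in channel A on array 1, and 1012 in channel B and 324 in channel A on array 2. The mean log2 ratio was 1.25 ± 0.34 (2.37-fold, adjusted p = 0.00124), but its spots disagreed on array 1. The spot with no saturated pixels read 244 in channel B and 47.3 in channel A, with a log2 ratio of 2.23. Its duplicate, with some saturation, read 3225 in channel B and 762 in channel A, with a ratio of 0.74. On spots below factor 1 alone rpl801 was at 0.88, below the 1.05 of rpl1702, and in the authors' deposited table it was at 1.18, below the 1.31 of rpl3001.

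A further 5 core proteins completed the upper end with loess, a rank that most did not keep. With median centring rpl3001 was at 1.71, rpl1702 at 1.31 and rpl2302 at 1.27, beside the members' median of 1.21. Below that median lay rpl3801 (1.155) and rpl102 (1.06). The probe rpl1702, for a protein at the exit of the tunnel, had ratios of 1.17 on array 1 and 0.92 on array 2 (mean 1.05 ± 0.18, adjusted p = 0.00208), and all 4 of its spots held saturated pixels. The probe rpl102 was read without saturation at 231 in channel B and 93.2 in channel A on array 1, and at 269 in channel B and 111 in channel A on array 2. Its mean was 1.02 ± 0.12 (adjusted p = 0.00216), and median centring gave nearly the same value, 1.06, so the curve subtracted little at its brightness. For rpl3001, whose S. cerevisiae homologue represses splicing of its own transcript, the mean was 0.94 ± 0.25 (adjusted p = 0.00424). The probe rpl3801 averaged 0.86 ± 0.17 (adjusted p = 0.00537), and its mouse homologue is known for its part in translating Hox transcripts. For rpl2302 the mean was 0.86 ± 0.08 (adjusted p = 0.00497).

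At the lower end stood both copies of rpl4, whose protein lines the exit tunnel. The probe rpl402 read 2278 in channel B and 1361 in channel A on array 1, and 2353 in channel B and 1766 in channel A on array 2. Its loess ratios were -0.68 and -0.75 (mean -0.72 ± 0.05, adjusted p = 0.0116), while median centring gave 0.34. The probe rpl401 read 2987 in channel B and 1657 in channel A on array 1, and 2739 in channel B and 1686 in channel A on array 2. Its ratios were -0.70 and -0.43 (mean -0.56 ± 0.19, adjusted p = 0.0362), while median centring gave 0.56. These 2 calls were lost with a curve per block, with adjusted p-values of 0.222 for rpl402 and 0.106 for rpl401. Their channel B intensity exceeded that of channel A on both arrays, but by less than for most members, and they stayed among the lower members under median centring.

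The other low probes did not pass the test. The ratio was -0.21 ± 0.05 for rpl22 (adjusted p = 0.355) and -0.15 ± 0.15 for rpl42, listed as rpl36a in the files (adjusted p = 0.537). Both were positive with median centring, at 0.86 and 0.91. The probes rpl24-3 (-0.35 ± 0.40, adjusted p = 0.196) and rpl302 (-0.20 ± 0.68, adjusted p = 0.539) were the 2 negative with both normalizations. They were also dim: rpl302 read 21.7 in channel B and 16.7 in channel A on array 1, and 29.3 in channel B and 40 in channel A on array 2. Its arrays pointed in opposite directions.

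The probe rpl2101 differed in sign between arrays by more than 1 log2 unit. It read 415 in channel B and 160 in channel A on array 1, and 286 in channel B and 314 in channel A on array 2. The log2 ratio was 1.01 on array 1 and -0.54 on array 2, and the mean of 0.24 ± 1.09 did not pass (adjusted p = 0.601). Its duplicate spots stood close on each array, at 1.03 and 0.99 on array 1 and at -0.57 and -0.51 on array 2, so the disagreement lay between arrays.

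Of the 16 probes with no partner copy by name among the members, 5 were higher and 0 lower. They need not be single-copy genes, as the name rpl27-2 of rpl2702 in the files shows. The probe rpl2702 averaged 0.76 ± 0.10 (adjusted p = 0.00899) and rpl39, for a small protein of the tunnel exit, 0.72 ± 0.12 (adjusted p = 0.0118). The probe rpl44 averaged 0.71 ± 0.19 (adjusted p = 0.0140) and rpl31, also at the tunnel exit, 0.70 ± 0.20 (adjusted p = 0.0146). The value of rpl26, 0.51 ± 0.06, lay at the threshold (adjusted p = 0.0453). With a curve per block it was 0.41 and no longer passed (adjusted p = 0.0781). The 47 members not described singly ranged from -0.02 to 0.76, and 8 of them were higher and 0 lower.

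Copies of one protein can be compared within an array, and 67 probes fell into 31 such families by name (26 of 2 probes and 5 of 3). The difference between the highest and the lowest copy had a median of 0.25 log2 units and ran from 0.02 to 2.01. It kept one sign on both arrays in 19 families and turned sign in 12. It reached 1.5-fold in 3 families, and in 2 of them on each array. All copies passed the test in 7 families, some in 9 and none in 15. The higher copy was chosen by its loess mean, so differences are positive by construction and carry no test.

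The widest difference with loess was in P2: rpp203 exceeded rpp202 by 2.01 on each array (2.01 ± 0.005). It was 1.99 with a curve per block and 1.22 with median centring, and rpp203 was the higher of the pair in each. With median centring the differences fixed with loess were larger in the families of L24 (1.78), L7 (1.36) and L18 (1.31). The low L18 probe, rpl1802, was dim. It read 28.3 in channel B and 22.2 in channel A on array 1, and 40.6 in channel B and 39.1 in channel A on array 2. In the family of L24, a protein in a bridge between the subunits, rpl2401 exceeded rpl24-3 by 1.02 ± 0.44, with 1.78 under median centring and 0.72 with a curve per block. The copy rpl2401 had a ratio of 0.67 ± 0.04 (adjusted p = 0.0158) and rpl2402 one of 0.51 ± 0.23 (adjusted p = 0.0549). With a curve per block the calls exchanged, rpl2401 being at 0.32 (adjusted p = 0.15) and rpl2402 at 0.86 (adjusted p = 0.00769). The low value in this family belongs to a probe that matched no RefSeq entry. It read 38.1 in channel B and 54.4 in channel A on array 1, and 89.0 in channel B and 77.0 in channel A on array 2. In the family of L7 the low value also came from an unmatched probe. There rpl701 was at 0.56 ± 0.05 (adjusted p = 0.0333), rpl702 at 0.31 ± 0.14 (adjusted p = 0.185) and the unmatched rpl7-3 at 0.01 ± 0.40 (adjusted p = 0.969). Both unmatched probes are in these families by name only, and whether they are copies of L24 and L7 was not checked. The probe rpl701 exceeded rpl7-3 by 0.55 ± 0.35, with 1.36 under median centring and 1.0 with a curve per block. The copy rpl702 passed under both of these, at 1.04 (adjusted p = 0.00167) and 0.79 (adjusted p = 0.0393). Its spots disagreed on array 1. One read 22.7 in channel B and 20.8 in channel A (0.02), its duplicate 3535 in channel B and 977 in channel A (0.42). With loess on spots below factor 1 alone, which leaves out the dim spot, rpl702 was at 0.41. It did not pass among the 85 genes then tested (adjusted p = 0.14), as it had not with loess on all spots. The other 2 normalizations were not run without the dim spot.

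The other 2 wide families also moved with the normalization. The copy rpl2302 exceeded rpl2301, whose own ratio of 0.23 ± 0.21 did not pass (adjusted p = 0.329), by 0.63 ± 0.13. This difference was 0.16 with median centring and 0.87 with a curve per block. In the family of L8, rpl801 exceeded rpl802 by 0.57 ± 0.52, with 0.13 under median centring and -0.11 with a curve per block, where the order turned. All 3 of its copies were higher with loess, rpl802 at 0.68 ± 0.18 (adjusted p = 0.0165) and rpl803 at 0.78 ± 0.07 (adjusted p = 0.0079). With a curve per block rpl803 was at 0.42 and did not pass (adjusted p = 0.0707).

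The narrowest families were those of L38 and L12. The copies rpl3801 and rpl3802 differed by 0.03 ± 0.06, and both were higher, rpl3802 at 0.83 ± 0.10 (adjusted p = 0.00586). The copies rpl1201 and rpl1202, for the protein at the base of the stalk, differed by 0.02 ± 0.11. Neither passed with loess, at 0.45 ± 0.24 (adjusted p = 0.0821) and 0.43 ± 0.35 (adjusted p = 0.112). Over all families, the copy highest with loess stayed above the copy lowest with loess in 18 of 31 with median centring. With a curve per block it did so in 22.

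**Figure D4:**
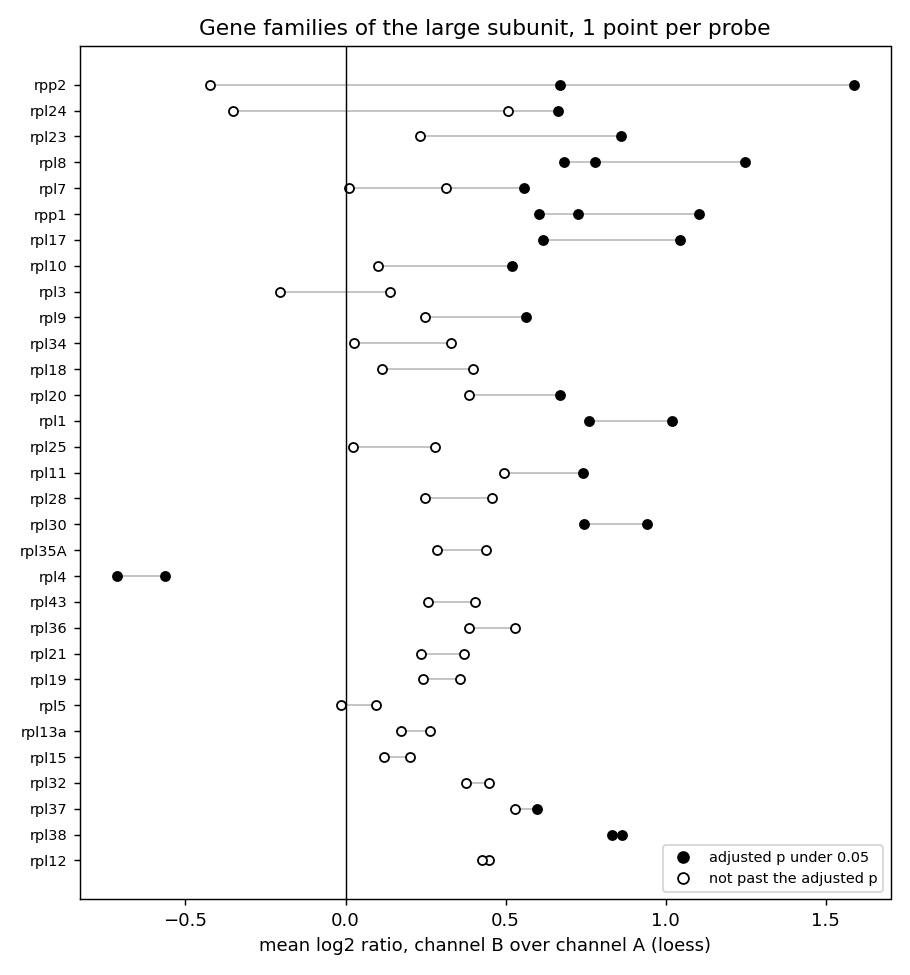
Mean loess log2 ratio, B over A, for each probe of the 31 families with more than one copy, ordered by the difference between highest and lowest copy; filled points passed the adjusted p. The P2 family at the top spans 2.01 log2 units and L12 at the bottom 0.02; both L4 copies lie left of 0, and both are positive with median centring.

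Member spots were often saturated. The files give each spot a saturation factor, which is 1 on most spots and below 1 on the others. Its formula is not given in the sources used here, and 1 was read as no saturated pixels. On array 1 the factor was 1 on 132 member spots and below 1 on 29, with 5 spots without signal. On array 2 it was 1 on 105 and below 1 on 61. The share below 1 among spots with signal was 18.0% and 36.7% of member spots, against 1.59% and 2.32% of all gene spots. Because the factor is not given per channel, no bound could be put on a saturated ratio.

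With loess, the median ratios of unsaturated and of all saturated member spots lay close together. They were 0.44 at factor 1 and 0.45 below 1 on array 1, and 0.40 at factor 1 and 0.36 below 1 on array 2. The saturated spots pool 2 classes that differed, with a median of 0.72 under factor 0.5 and 0.33 from 0.5 up. In 25 cases, from 21 genes, one duplicate on an array had factor 1 and the other did not. The first minus the second had a median of 0.04 log2 units, from -0.59 (rpl2802) to 1.48 (rpl801), and was positive in 16 and negative in 9. By array the median was -0.03 over 12 cases and 0.05 over 13. Duplicates differed by a median of 0.15 where both had factor 1, by 0.11 where 1 did and by 0.22 where neither did. For rpl702 on array 1 (-0.40) the factor 1 spot was dim, at 22.7 in channel B. Only 2 of the 25 cases held a factor under 0.5, so the cases say little of heavily saturated spots.

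Calls were made with and without saturated spots. With all spots, 11.3% of all genes tested were higher and 16.7% lower. Of the 45 members with no saturated spot, 17 were higher and 1 lower (median 0.40). Of 29 members with both kinds of spot, 8 were higher and 1 lower (median 0.39). The 9 members whose spots were all saturated had a median of 0.47, and 4 of them were higher (rpl1702, rpl2001, rpl901 and rpl1002). Refitting all genes on spots of factor 1 alone left 58 members on both arrays, 26 of them higher and 2 lower, against 11.9% and 17.1% of the 4801 genes then tested. On spots below factor 1 alone, 21 members could be fitted, 5 of them higher and 0 lower, against 27.1% and 20.0% of the 85 genes then tested.

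Within the saturated member spots, the deposited intensity fell with the factor. The 29 spots with a factor under 0.5 had a median of 988 in channel B and 358 in channel A. The 61 spots from 0.5 to under 1 had 3045 in channel B and 996 in channel A. The median deposited intensity under 0.5 was thus below the factor 1 median of 1994 in channel B. For such spots it cannot be read as the brightness of the spot, although the loess curve was read at it. How saturated pixels enter the deposited intensity was not tested. Probe rpl1702 shows the fall best. Its spots on array 1 had factors of 0.107 and 0.0357 and read 518 and 147 in channel B. On array 2 factors of 0.375 and 0.488 went with 1048 and 1477. The median loess ratio was 0.72 under 0.5 and 0.33 from 0.5 up, while with median centring it was 1.04 and 1.26, so the order of these classes turned with the normalization.

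**Figure D5:**
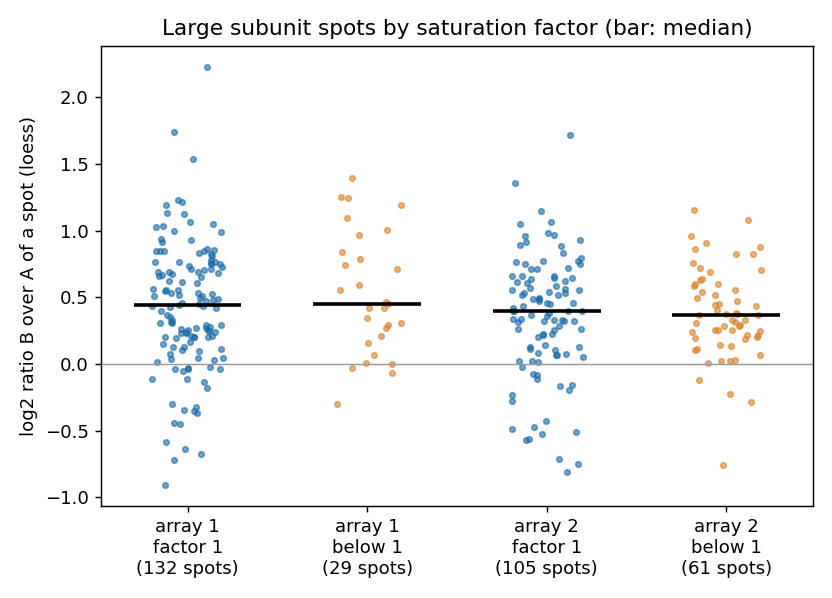
Loess log2 ratio, B over A, of each member spot (vertical axis), by array, with factor 1 left of below 1; points are spots, spread sideways at random, and black bars are medians. The medians of 0.44 and 0.45 on array 1 and of 0.40 and 0.36 on array 2 lie close together within wide clouds of spots. Spots below 1 are pooled whatever their factor.

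Genes of related processes give the setting. Of 55 small subunit genes, 24 were higher and 0 lower; their median log2 ratio was 0.53. The first by adjusted p were rps001 (1.37 ± 0.27, adjusted p = 0.000639), rps1701 (1.25 ± 0.26, adjusted p = 0.00100) and rps101 (1.32 ± 0.39, adjusted p = 0.00110). With median centring 54 were higher and their median was 1.25. The 29 genes of the mitochondrial large subunit had 4 higher and 1 lower with a median of 0.21. Their leading genes were mrpl19 (0.85 ± 0.08, adjusted p = 0.00527) and mrpl40 (0.73 ± 0.11, adjusted p = 0.0113).

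Factors that assemble the 60S subunit showed few calls: of 39 tested, 3 were higher and 2 lower (median 0.15). For this and the next lists, the shares of all genes were again 11.3% higher and 16.7% lower with loess. With median centring they were 15.5% and 17.2%. The helicase gene drs1 was lower (-1.13 ± 0.16, adjusted p = 0.00130) and rrs1 higher (0.88 ± 0.18, adjusted p = 0.00498). Of 12 genes of RNA polymerase I and its factors, 2 were higher and 1 lower (median 0.16). They included rpa49 (0.99 ± 0.12, adjusted p = 0.00255) and rpa12 (-1.01 ± 0.22, adjusted p = 0.00267), and rpa12 did not pass with median centring (-0.46, adjusted p = 0.0568). None of 5 translation elongation factor genes passed with loess (median 0.12; tef3 0.46 ± 0.13, adjusted p = 0.0678; tef5 0.44 ± 0.07, adjusted p = 0.0754), whereas 4 were higher with median centring, with a median of 1.15. Of 13 TOR pathway genes and regulators of ribosomal genes, 0 were higher and 4 lower with either normalization, and their median was -0.36. The lowest was sfp1 (-1.55 ± 0.20, adjusted p = 0.000278), whose S. cerevisiae namesake activates ribosomal protein genes, and the kinase gene sck2 was lower too (-0.69 ± 0.07, adjusted p = 0.0141).

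A further 2 readings concern direction, but neither can decide it. If channel A were one dye on both arrays, the labelled dye swap would require the sign of array 1 to be turned. Then 0 members passed in either direction, 0 of all 4900 genes did (0.0%), and the members' median was -0.05. Where the arrays match, turning 1 sign brings a mean near 0 by construction, so this loss of calls says nothing on direction. In the authors' deposited table of normalized values, which follows channel B over channel A, the median of 82 members was 0.76 on the log2 scale. None of them passed, nor did any of all 4857 genes measured there (0.0%), while 61 members had an unadjusted p under 0.05, as did 36.8% of all those genes.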

How the data were processed

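The deposited scanner tables give, per the file headers, each spot's intensity in channels A and B, corrected for background by the authors, the background intensity, and linear ratios of channel A over channel B by mean and median. Per the file headers there is also the saturation factor, a fraction between 0 and 1, with pixel area and letter flags. The authors' deposited value table holds log10 values normalized with lowess, per the series' design text. Its first 5760 rows followed the log10 ratio, B over A (r = 0.913 on array 1 and 0.939 on array 2 across spots). The rest did not (r = 0.0355 and 0.0566) and were not used. Each column had a median of 0.01, and values at a floor of -2 were treated as missing. The sources used here do not give the scanner software, the annotation or a genome build.

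From the deposited intensities, log2 ratios of channel B over channel A were computed with an offset of 50 and normalized within each array by loess (span 0.3, controls at weight 0). The written design named normexp; as the deposited columns were already corrected, it became an alternative. Spots of a probe were averaged, spots without signal were left out, and genes whose mean signal on any array fell under the 95th percentile of negative controls in each channel were removed, which left 4900 of 5006. The test was limma 3.58.1 in R 4.3.3 with an intercept only (lmFit and eBayes, 1 residual and 7.64 prior degrees of freedom). Benjamini-Hochberg adjustment ran over all genes tested. The code was also run on simulated arrays whose changed genes were drawn at random, whatever their brightness. Such arrays do not test the case of a group of bright genes that shift one way. The number of arrays limits the precision, and the smallest p of an exact two-sided sign-flip test is 0.5 for 2 arrays.

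Members, gene lists and tests were chosen with earlier results of these data known. Singly described were the stalk genes, the 8 highest and 8 lowest members, those lower past the threshold, and the 5 widest families of one sign and the 2 narrowest. Added to these were members in no family by name that passed (at most 6), members whose arrays differed in sign by over 1 log2 unit, and the leading genes of each other list. Families were formed from names. Alternatives were median centring, a curve per block, no offset, normexp, no filter, spots of factor 1 or below 1 alone, spots flagged C alone, the authors' values, the sign of array 1 turned, each array left out and, added after seeing the data, the deposited spot median ratio.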

Additional observations from a re-analysis of the deposited data

How the results depend on the processing

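The count of members higher in channel B was 29 of 83 in the main fit. It was 27 to 32 of 83 with a curve per block, no offset, normexp, no filter and the spot median ratio. It was 26 of 58 measured with factor 1 spots alone and 25 of 74 measured with spots flagged C alone. It was 76 with median centring, 5 of 21 measured with spots below factor 1 alone, 0 with the authors' values and 0 with the sign of array 1 turned. The count lower, 2 with loess, was 1 with a curve per block (rpp202 in place of the rpl4 copies), 1 with normexp and 1 with the spot median ratio (rpl402 in both). It was 0 with median centring, 0 with spots below factor 1 alone, 0 with the authors' values and 0 with the sign turned. The members' median was 1.21 with median centring, 0.76 with the authors' values, -0.051 with the sign turned and 0.39 to 0.50 with 1 array left out. The median family difference was 0.061 with median centring, 0.11 with a curve per block, 0.076 in 3 families with spots below factor 1 alone, 0.16 with spots flagged C alone, 0.17 with the authors' values, -0.044 with the sign turned and 0.22 to 0.28 with 1 array left out. As the higher copy was picked with loess, a smaller difference elsewhere is in part built in. The saturation difference was -0.036 with a curve per block and -0.027 to 0.051 with 1 array left out.

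With median centring the sign turned for rpp0 (0.76), rpp202 (0.59), rpl42 (0.91), rpl22 (0.86), rpl401 (0.56) and rpl402 (0.34). With the authors' values it turned for rpp0 (0.017), rpp202 (0.033), rpl42 (0.23), rpl22 (0.12) and rpl7-3 (-0.10). With the sign of array 1 turned, a value is by construction near 0 where the arrays had matched, and farther from 0 where they had differed, as for rpl2101, rpp201 and rpl24-3. The sign turned for rpp203 -0.051, rpp103 -0.073, rpp101 -0.16, rpp201 -0.35, rpp102 -0.024, rpp0 0.002, rpl801 -0.24, rpl1702 -0.13, rpl102 -0.086, rpl3001 -0.18, rpl3801 -0.12, rpl2302 -0.054, rpl22 0.035, rpl24-3 0.28, rpl401 0.13, rpl2401 -0.028, rpl2301 -0.14, rpl3802 -0.072, rpl39 -0.084, rpl44 -0.13, rpl2101 -0.77, rps001 -0.19, rps1701 -0.18, rps101 -0.28, mrpl19 -0.058, mrpl40 -0.08, drs1 0.11, tef3 -0.093, rpa12 0.15, sfp1 0.14 and sck2 0.051. The cause of the other changes was not tested. No paired analysis was possible because each array holds both cultures and is itself the pair. Leaving out copies with nearly identical proteins was not run, since no protein sequences were used here. With 1 array left out no residual degree of freedom remains, so those values carry no test. Saturated spots limit the bright members, and dim signal limits rpl302, rpl24-3 and rpl1802.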
